A study of Mus musculus with 2 samples.

Results

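The sites described here are the cytosines followed by adenine (CA context) that were called as retaining a C in mouse embryonic stem cells. They were chosen by their trinucleotide alone, as CAA, CAC, CAG or CAT, in the 2 deposited lists of called cytosines. Together the 2 lists held 15053 CA sites of 46677 called cytosines, a site called in both being counted once. Replicate 1 held 9260 CA sites of 28569 calls (32.4%, 95% Wilson interval 31.9 to 33.0%), and replicate 2 held 9463 of 29650 (31.9%, 31.4 to 32.4%). Calls of any context made up 0.827% of the cytosines tested in replicate 1 and 0.767% in replicate 2. The context of the tested cytosines is not in the lists, so these shares describe the calls and do not measure enrichment.

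The libraries came from chemical labelling enrichment and deamination sequencing (CLED-seq), a method for mapping 5-formylcytosine (5fC) at single bases. Sheared genomic DNA was tagged with biotin at the formyl group, captured on streptavidin beads, and treated with the cytidine deaminase A3A, which converts untagged C, 5mC and 5hmC so that they are read as T. Both libraries belong to 1 group of embryonic stem cells, and their titles name no treatment or genetic change. Strain, sex, culture medium and passage are not given in the sources used here, and no label says that the replicates came from separate cultures. The assay reads DNA, so marker gene expression could not be used to check the labelled cell type. No untreated or uncaptured library was analysed here, so a tagged 5fC and a cytosine that A3A failed to convert cannot be told apart at any single site.

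Methylation outside CG is laid down by the de novo enzymes DNMT3A and DNMT3B and falls mostly on CA. In embryonic stem cells it favours CAG, whereas in neurons it favours CAC. TET enzymes oxidise 5mC to 5hmC and on to 5fC, which the glycosylase TDG removes, and this oxidation is best known at CG.

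The following 12 CA sites are shown because they lay in sequence windows around annotated gene starts, were called in both libraries, and kept the C in the largest share of reads. The capitals mark the called C and the 2 bases after it, and each run reads 5′ to 3′ on the strand of the called C. Sequences are from RefSeq, build GRCm38.p6, the build also named mm10.
Cln3, chr7:126585982-126586002, plus strand: gacatggttgCAGaaatcgaa
Rnf7, chr9:96478723-96478743, minus strand: ctcgtgacgtCACtggcgcgc
Gm52829, chr5:117409822-117409842, plus strand: aggagagatcCACcctcccct
Gm45974, chr7:25270949-25270969, plus strand: gggagggtgaCAAgccagagg
Gldn, chr9:54286480-54286500, minus strand: ctcagggcagCACtgggcctc
Gm46382, chr12:112722360-112722380, minus strand: gtgctcccgcCAGgcccgcgg
Gm10602, chr7:101838164-101838184, minus strand: tccctgctcgCACctggccca
Cmtm2a, chr8:104293409-104293429, minus strand: cctcttgctcCACaagctgcc
4930568A12Rik, chr1:34499170-34499190, minus strand: aggatgcgcgCACttgatgct
Mtmr14, chr6:113237830-113237850, minus strand: ggccccgcccCACctctccgg
Gm15501, chr7:93184300-93184320, plus strand: gcttgattctCATtacccagt
Sema3g, chr14:31217633-31217653, plus strand: gagtgtctgtCATtcaaactg

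The level of a site is the share of its reads that kept the C. The CAG 175 bases before the start of Cln3, a lysosomal membrane protein gene, kept the C in 38 of 38 reads in both libraries. At Rnf7, which encodes a RING subunit of cullin ubiquitin ligases, the CAC 58 bases before the start kept it in 34 of 34 reads in both. The CAC 94 bases before Gm52829, a long noncoding RNA gene, kept it in 30 of 30 reads in both. These 3 sites were fully kept in both libraries, and their read counts were identical between them. At Gm45974 the CAA kept the C in 40 of 41 reads in replicate 1 and 39 of 39 in replicate 2. At Cmtm2a the CAC kept it in 33 of 36 and 66 of 70 reads. The remaining 7 sites lay between 83.9% and 96.9% in replicate 1, so all 12 exceeded 80% in both libraries. Of these, the CAC at Gldn, a cell adhesion gene of the node of Ranvier, lay 5 bases into the gene and kept the C in 31 of 32 reads in both. The CAC at Mtmr14, a phosphoinositide phosphatase gene, lay 3 bases before the start and kept it in 27 of 30 reads in both.

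The called C at Rnf7 lies inside TGACGTCA, the palindromic cyclic AMP response element, a motif noticed after the sequence was seen. TGACGTCA occurs in 1.79% of the 32851 gene-start windows, and 1 of the 1018 CA cytosines that it places in them was called in either library. The match is a description of the letters and says nothing of a factor.

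Before the values are compared, the relation of the libraries matters. Of the 3670 CA sites called in both, 73.5% (72.0 to 74.9%) had the same number of kept reads and the same depth. The share was 69.95% for CC and CT sites and 64.4% for CG sites. Outside 13 windows of 10 kb that held at least 10 called sites in either library, called dense windows here, 75.4% of 3571 shared CA sites had identical counts, against 4.04% of 99 inside them. At these shared sites the libraries are therefore treated as 1 sample, values are given for each library, and no spread between replicates is computed. Reads were amplified by PCR without molecular identifiers in the labels, and sites of 1 library are not replicates, so every interval covers counting error or the spread over sites only.

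CAG was the most frequent CA trinucleotide. Replicate 1 held 3415 CAG sites, 36.9% of its CA calls (35.9 to 37.9%), and replicate 2 held 3428, or 36.2% (35.3 to 37.2%). CAC followed with 2248 and 2309 sites (24.3% and 24.4%). CAA had 1796 and 1752 sites (19.4% and 18.5%), and CAT had 1801 and 1974 (19.4% and 20.9%). CAG led on all 19 autosomes in both libraries. The only sequence that could be counted was that of the gene-start windows, where CAG made up 36.0% of CA cytosines, CAC 24.2%, CAA 21.2% and CAT 18.6%. Both orders put CAG first and CAC next, although those windows are a small and unusual part of the genome.

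Levels hardly differed among the trinucleotides. The median CA site kept the C in 47.2% of reads in replicate 1 (quartiles 30.6 and 76.7%) and 46.9% in replicate 2 (30.6 and 75.8%), at a median depth of 34 reads in both. Median levels were 48.6% and 47.2% at CAG, 47.6% and 47.1% at CAC, 46.7% and 46.7% at CAA, and 46.7% and 46.7% at CAT. The 4 distributions overlap nearly throughout, as the plot of levels by trinucleotide shows. Because only called sites at a depth of at least 30 are listed, low levels are missing and these medians exceed those of all cytosines.

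**Figure D1:**
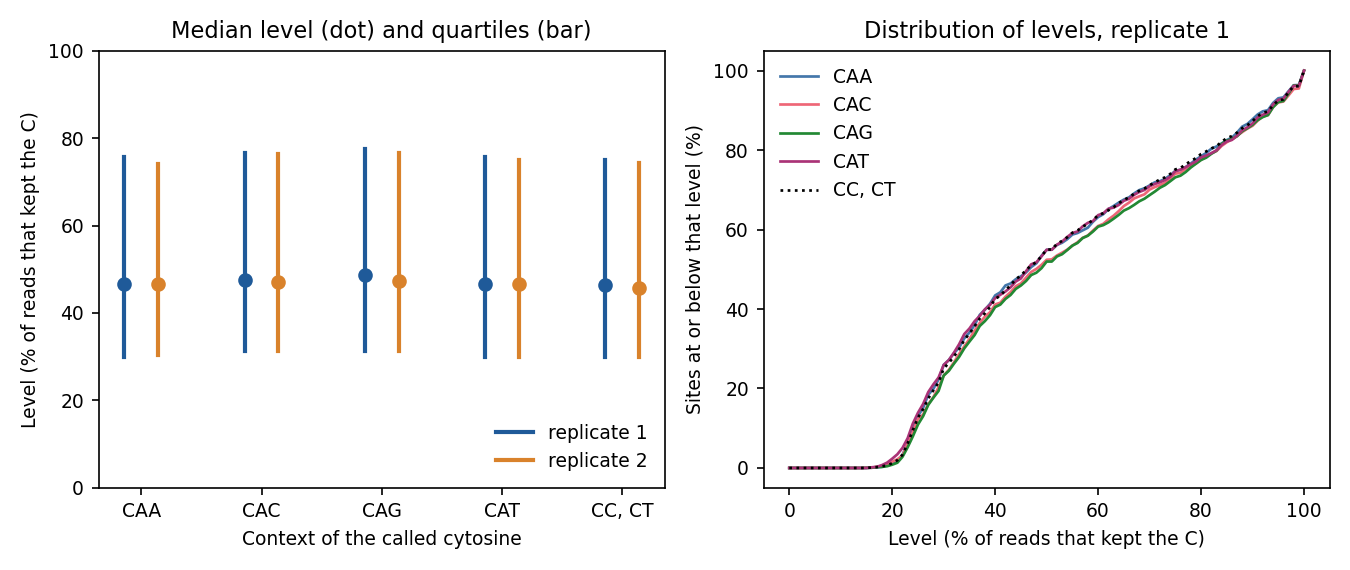
Level of called sites, as the percentage of reads that kept the C, by context. The left panel gives the median (dot) and quartiles (bar) in both libraries, and the right panel the cumulative share of replicate 1 sites at or below each level; the curves of all contexts run close together.

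The mean level at CAG minus that at CAC was 0.37 percentage points in replicate 1 (95% interval from the spread over sites, -0.99 to 1.73) and -0.08 in replicate 2 (-1.43 to 1.26). No difference between the stem cell-favoured and the neuron-favoured trinucleotide was detectable, and values above 1.73 or below -1.43 points lie outside both intervals. CAG exceeded CAA by 1.57 points (0.12 to 3.02) and 1.21 points (-0.23 to 2.66), and CAT by 1.57 (0.11 to 3.04) and 1.17 (-0.24 to 2.57). Both intervals excluded 0 in replicate 1 and included it in replicate 2, over 6 pairs compared without adjustment. Against the pooled CC and CT sites, CA was higher by 0.81 points (0.17 to 1.46) and 0.91 points (0.28 to 1.54), a small gap. Among sites with at least 50 reads the mean of the libraries was -1.92 points (-4.83 to 0.98), an interval that includes 0. By autosome, over all listed sites, CA was above CC and CT on only 11 and 12 of 19. CA exceeded CG by 1.5 points (0.33 to 2.68) and 1.2 points (0.063 to 2.34), but was higher on only 9 and 10 of 19 autosomes. CG had 8.22% and 8.55% of its sites in the dense windows of low level, against 2.54% and 2.07% for CA. Outside them the median levels were 48.5% for CA and 48.4% for CG in replicate 1, and 47.7% and 48.5% in replicate 2, where CG was the higher.

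High levels were about as frequent at CA sites as over all calls. Levels of at least 80% were found at 22.8% of CA sites in replicate 1 and 22.1% in replicate 2, against 22.0% and 21.5% of all calls. The C was kept in all reads at 362 and 384 CA sites (3.91% and 4.06%), against 3.97% and 3.91% of all calls. Of the 3670 shared CA sites, 939 had at least 80% in both libraries and 150 were at 100% in both: 24 CAA, 40 CAC, 49 CAG and 37 CAT. None of these CA sites lay in a dense window. Over all contexts, 2820 of 11542 shared sites had at least 80% in both libraries and 458 were at 100% in both.

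Among the fully kept CAG sites with the greatest depth were one in Pigv, a mannosyltransferase gene of GPI anchor synthesis (chromosome 4, position 133659909, minus strand), with 41 of 41 and 80 of 80 reads, and one in the receptor phosphatase gene Ptprg (chromosome 14, 11978677), with 35 of 35 and 70 of 70. The others were in the overlapping genes Psapl1 and Sorcs2, in the methionine sulfoxide reductase gene Msra, and outside protein-coding genes nearest Ppp1r12a. Only protein-coding genes were used to place these sites. The deepest fully kept CAT site lay in Dtx2, a Deltex ubiquitin ligase gene (chromosome 5, 136018083), with 81 of 81 and 54 of 54 reads. The other 4 CAT sites lay outside protein-coding genes, nearest Lrmda, Pcdh18, Gabra3 and Zmiz1. At CAC, such sites lay in Utf1, a chromatin factor gene of pluripotent cells (chromosome 7, 139944717), with 40 of 40 reads in both, and in the folate carrier gene Slc19a1, also 40 of 40 in both. The other 3 lay outside protein-coding genes nearest Bmp7, Hs3st3b1 and Hrh2. At CAA they lay in the overlapping genes Cdh23 and Vsir (40 of 40 in both), in Lrfn4 and Pcx (37 of 37 in both), and in Sgsm1 (36 of 36 in both). The CAA sites outside protein-coding genes lay nearest Gm8068 and B3gnt2. With 40 reads the lower limit of a 100% level was 91.2% (Wilson).

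The 10 deepest shared CA sites outside dense windows ran from 34.8% to 97.7% in replicate 1. A CAT in Cdx2, a trophectoderm and intestinal transcription factor gene (chromosome 5, 147306479), kept the C in 68 of 88 reads in both libraries (77.3%, 67.5 to 84.8%). A CAG in the ETS factor gene Erg (chromosome 16, 95585857) kept it in 39 of 112 (34.8%) and 29 of 79 reads (36.7%), and one in the adenylate cyclase gene Adcy6 (chromosome 15, 98600158) in 39 of 56 (69.6%) and 78 of 113 (69.0%). A CAC in Syt14 (chromosome 1, 192950977) kept it in 86 of 101 (85.1%) and 58 of 68 reads (85.3%). At each of these 4 sites the levels of the libraries lay within 2 percentage points of each other. At Cdx2, however, the counts were identical. At Adcy6 and Syt14 kept reads and depth both stood near the same multiple between the libraries, a pattern described under Other observations. Identical or scaled counts fix the level, so this closeness does not measure reproducibility. The other 6 of the 10 deepest shared sites lay outside protein-coding genes, from 61.1% to 97.7% in replicate 1. The highest, nearest Hs3st4, had 86 of 88 and 126 of 129 reads.

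The genic share was highest at CAG among the CA trinucleotides. A site counted as genic when it lay between the annotated start and end of a protein-coding gene; exon, intron and UTR positions were not used here. It was 53.7% and 53.9% at CAG, 50.0% and 51.5% at CAC, 47.7% and 47.1% at CAA, and 47.1% and 48.7% at CAT. CAG exceeded CAA by 5.96 points (Newcombe 95% interval 3.10 to 8.80) and 6.73 points (3.86 to 9.60), and CAT by 6.59 (3.74 to 9.43) and 5.15 (2.38 to 7.90). Over CAC the excess was 3.63 points (0.97 to 6.28) in replicate 1, but 2.34 points (-0.29 to 4.97) in replicate 2, which did not exclude 0. The genic share of CA as a whole, 50.4% and 51.0%, differed from that of CC and CT sites by -2.14 points (-3.40 to -0.87) and -1.40 points (-2.65 to -0.16). From the CG share it differed by -7.69 points (-9.94 to -5.41) and -7.28 points (-9.47 to -5.06), so CA was the lower in both comparisons. The base composition of genes was not counted, so its part in these differences was not tested.

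**Figure D2:**
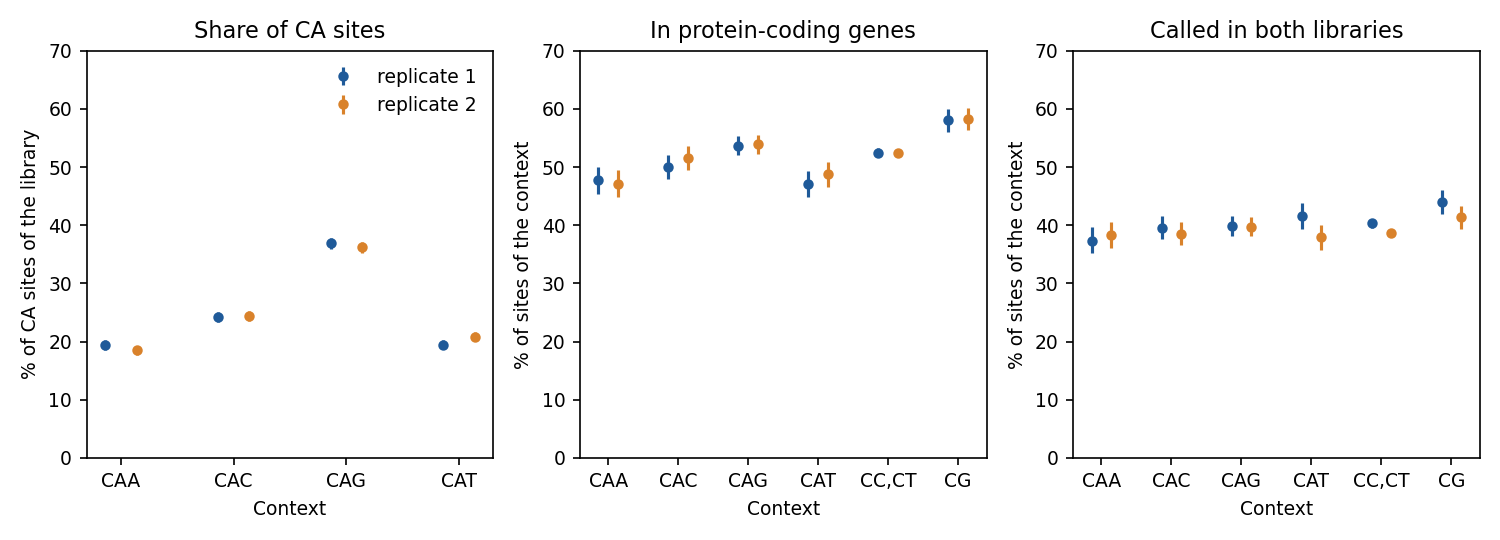
Share of CA sites by trinucleotide (left), share of each context's sites in protein-coding genes (middle) and share called in both libraries (right), in percent, with 95% Wilson intervals. CAG leads in number and, among CA trinucleotides, in genic share, while the shares called in both libraries lie between 37.4% and 41.5% for all 4.

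Within genes, CA sites lay on the gene's own strand less often than on the opposite one. Of the genic sites with a known gene strand, 1656 of 3600 (46.0%, 44.4 to 47.6%) were on the gene strand in replicate 1, and the share was 46.0% (44.4 to 47.6%) in replicate 2. It was lowest at CAA (43.2% and 43.3%) and highest at CAG (48.5% and 48.0%, both intervals including 50%). CC and CT sites stood at 49.3% (48.1 to 50.5%) and 51.0% (49.9 to 52.2%), above the CA interval in both libraries, and CG at 52.9% and 51.2%. A low share was not confined to CA, since CCA sites stood at 45.2% and 45.7%. In the gene-start windows 49.7% of all CA cytosines were on the gene strand. Those of gene bodies were not counted, so the part of base composition in the strand difference was not tested.

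**Figure D3:**
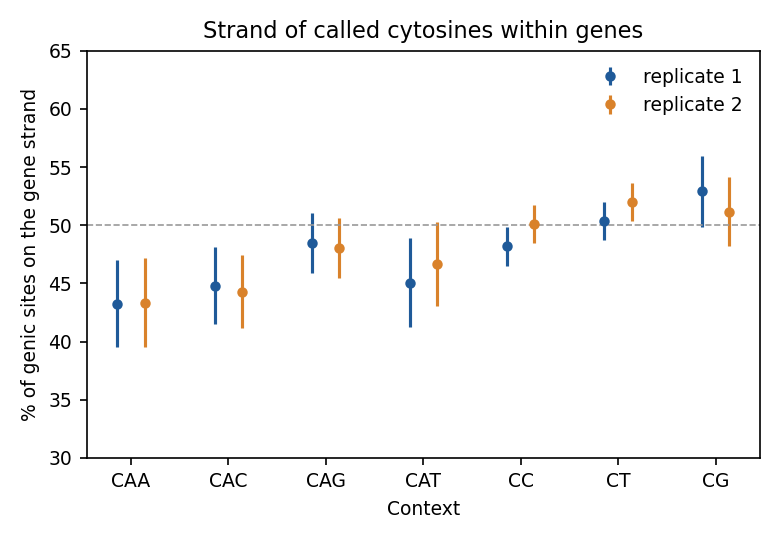
Percentage of genic called sites on the strand of the gene, by context and library, with 95% Wilson intervals; the axis runs from 30 to 65% and the dashed line marks 50%. CAA and CAC lie below the line in both libraries with their intervals, whereas the CAG intervals cross it.

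About 2 in 5 CA sites of a library were called again in the other. The 3670 shared sites were 39.6% of the CA calls of replicate 1 and 38.8% of those of replicate 2. By trinucleotide these were 671 CAA (37.4% and 38.3%), 890 CAC (39.6% and 38.5%), 1361 CAG (39.9% and 39.7%) and 748 CAT sites (41.5% and 37.9%). CAT had the highest share in replicate 1 and the lowest in replicate 2, so no order of the trinucleotides held in both. CA differed from CC and CT by -0.71 points (-1.94 to 0.54) and 0.11 points (-1.10 to 1.33), intervals that include 0. From CG it differed by -4.34 points (-6.61 to -2.08) and -2.58 points (-4.78 to -0.40), CA being the lower. Shared CA sites had a median level of 51.4% and 51.1%, against 45.7% and 45.2% for those called in 1 library only. At CAA the gap in mean level was 1.18 points (-1.26 to 3.62) and 1.40 points (-1.03 to 3.82), intervals that include 0. The gap was not particular to CA, since the medians of CC and CT sites were 50.0% against 44.4% and 50.0% against 43.8%.

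Shared CA sites were also searched for differences in level between the libraries. Because most counts there were identical, the test compares 1 library with 1 library and a low number of calls is no evidence that independent cultures would agree. Fisher's exact test on kept and lost reads, two-sided with Benjamini-Hochberg adjustment over all 11542 shared sites of any context, called 1 of 3670 CA sites, against 0.0260% of all shared sites. At an unadjusted p below 0.05 it found 10 CA sites, against 0.234% of all shared sites. The called site was a CAG in a dense window of chromosome 17 (position 39844104, minus strand), with 42 of 70 reads kept in replicate 1 (60.0%) and 12 of 64 in replicate 2 (18.8%; exact Fisher test, adjusted p = 0.0052). Next in order, and not called, was a CAC in Gabrr1, a GABA receptor subunit gene (chromosome 4, 33152276), with 26 of 30 and 26 of 59 reads (adjusted p = 0.23, exact Fisher test). The other 3 of the 5 lowest p-values were CA sites of the same chromosome 17 region. Only 21 of the 3670 sites differed by over 10 points, 15 of them among the 99 in dense windows.

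**Figure D4:**
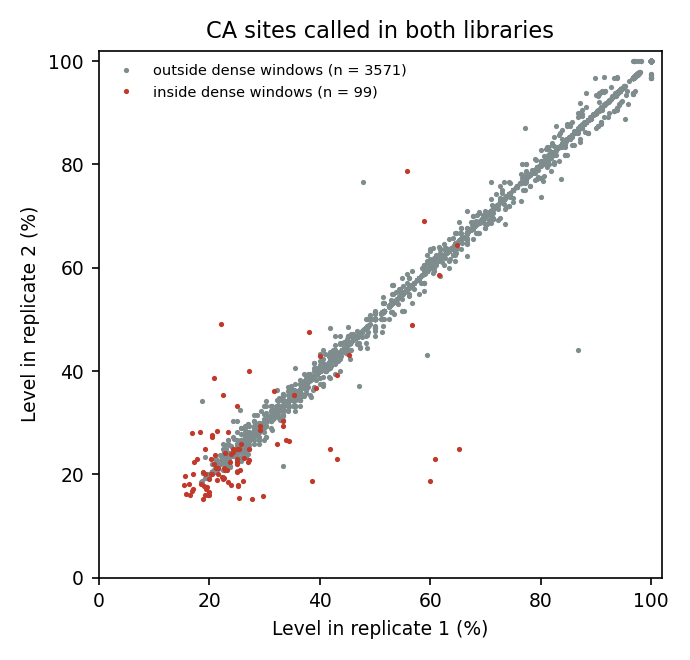
Level of each CA site called in both libraries, in percent of reads that kept the C, in replicate 1 (x axis) and replicate 2 (y axis). Grey points are the 3571 sites outside dense windows, most of which lie on the diagonal, and red points the 99 sites inside them, which scatter at low levels.

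The dense windows held 2.54% of CA sites in replicate 1 and 2.07% in replicate 2, against 2.81% and 2.48% of all calls. CA sites there had a median level of 22.6% and 22.7% at a median depth of 60 and 63 reads, against 48.5% and 47.7% elsewhere. The low level was not particular to CA. CC and CT sites there had medians of 23.5% and 24.3% at median depths of 51 and 48 reads, against 46.9% and 46.7% elsewhere. Among the 4 CA trinucleotides, CAT was most often found in dense windows (4.22% and 3.24% of its sites) and CAG the least (1.35% and 1.31%). Low level and high depth therefore came together over the pooled windows, but not in each of them. The chromosome 17 window held the most CA sites, 55 and 49, at median depths of 38 and 36 reads.

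Outside dense windows, called CA sites of a library seldom lay near each other. Only 12 pairs of CA sites in replicate 1 and 7 in replicate 2 lay within 100 bp of each other there. Called neighbours of other contexts within that distance were not counted here, other than the opposite CTG described next. A CAG reads as CTG on the opposite strand, so both strands can be compared at the same place. A called CTG lay opposite 6 of 3415 CAG sites in replicate 1 (0.176%) and 8 of 3428 in replicate 2 (0.233%), of which 4 and 5 were in dense windows. The opposite cytosine may have been tested and not called, or not been deep enough to be tested.

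CA sites called in replicate 1 only were often near a site called in replicate 2 only with nearly the same counts. Outside dense windows, 1060 of 5454 (19.4%) had such a partner within 120 bp, with kept reads and lost reads each within 1 read. The share was 22.5% at CAG, 16.2% at CAA, 21.1% for CC and CT sites and 28.1% for CG sites. Of the 1061 pairs, 754 were 91 to 120 bp apart, and in 317 (29.9%) the partner was itself a CA site. That CA share lies near the 31.9% of all replicate 2 calls and equals the 29.9% found for the partners of CC and CT sites. Most distances sat near the upper limit of the search. How such pairs arose was not tested.

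Around gene starts the reference sequence allowed called sites to be set against all cytosines present. The windows ran from 250 bases before to 50 bases after 32851 annotated starts of 27025 genes, chromosome 18 not being used here. They held 875 called sites of any context, all with the trinucleotide given in the lists, and 168 of these were CA, 133 before the start and 35 after it. The rate of calls in either library was 18.5 per 100000 CAC cytosines (14.2 to 24.0), 15.3 for CAG (12.1 to 19.4), 10.5 for CAT (7.0 to 15.6) and 8.0 for CAA (5.3 to 12.3). CAC was above CAA beyond both intervals in this union, and CAC and CAG could not be separated. In replicate 2 alone the intervals overlapped, with CAC at 11.4 (8.17 to 15.95) and CAA at 5.36 (3.19 to 9.0). CAG varied between the libraries, with 55 calls in replicate 1 and 35 in replicate 2, whereas CAC had 39 and 34. Per 100000 cytosines, CA as a whole had 13.6 calls (11.7 to 15.9), CT 13.9, CC 20.3 and CG 30.4 (26.7 to 34.8).

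These rates moved with base composition. In windows of at least 55% GC the CA rate was 28.9 (24.4 to 34.3), close to the 34.8 of CG (30.2 to 40) and the 28.4 of CC and CT, and in windows below 55% it was 4.6 (3.4 to 6.4) against 14.8 for CG (9.9 to 22.2). Within GC-rich windows CAC stood at 35.1 (26.2 to 46.9), CAG at 30.0, CAT at 29.9 and CAA at 15.4 (8.8 to 26.9), and the CAC and CAA intervals overlapped slightly. The 55% limit was chosen after the values were seen. How many cytosines of each window reached 30 reads is unknown, so a rate joins the chance of being tested with that of being called.

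The base before the called C was compared as well, since A3A is known to prefer a thymine there. Over all windows the rate was 16.7 after C, 17.5 after G, 9.7 after A and 9.6 after T. In GC-rich windows it was 31.9 after C, 31.7 after G, 24.2 after A and 23.1 after T, with intervals that overlapped widely (14.8 to 36.0 after T, 24.2 to 41.9 after C). At this number of sites, the preceding base and base composition cannot be told apart. TACAG, a motif in which CAG methylation is often described, was looked for on both strands and occurs in 38.1% of windows. Calls were found at 2 of its 15513 cytosines (12.9 per 100000, 3.5 to 47.0), against 15.4 at the other CAG cytosines.

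**Figure D5:**
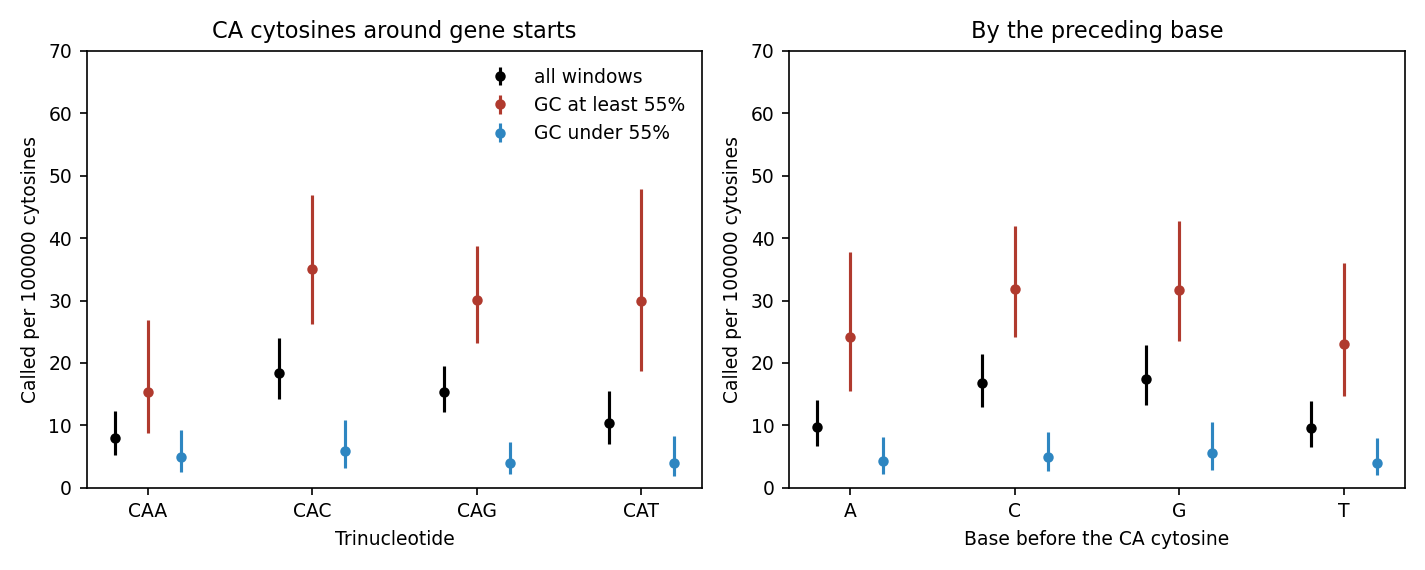
Called CA cytosines per 100000 CA cytosines in windows around gene starts (called in either library), by trinucleotide (left) and by the base before the C (right), with 95% Wilson intervals. Rates in windows of at least 55% GC (red) lie above those in other windows (blue) for every trinucleotide and preceding base.

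Of the 168 CA sites around gene starts, 53 were shared between the libraries: 7 CAA, 18 CAC, 22 CAG and 6 CAT. Their levels ran from 18.9% to 100% with a median of 51.5% in replicate 1, and from 20.4% to 100% with a median of 53.1% in replicate 2. The counts were identical at 32 of them. At least 80% in both libraries was reached by 13, of which 7 were CAC, all printed above. The CAC median was 74.6% and 74.9% against 47.4% and 48.2% at CAG, in 18 and 22 sites with ranges that overlap nearly throughout.

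MicroRNA hairpins were also searched, after values had been seen. Of 1005 hairpins in the RefSeq table, 2 held a called CA site, both CAG and each called in 1 library only. In Mir212 the called C is base 4 of the mature miR-212-3p, inside its seed (bases 2 to 8, in capitals in the mature sequence).
Mir212 site, chr11:75173436-75173456, plus strand: ccttcagtaaCAGtctccagt
miR-212-3p, chr11:75173443-75173464, plus strand: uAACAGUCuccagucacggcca
Mir7056 site, chr7:47083180-47083200, minus strand: gcccaactcaCAGcctcacct
The Mir212 site kept the C in 29 of 31 reads of replicate 1 (93.5%, 79.3 to 98.2%), and the Mir7056 site, outside its mature sequences, in 32 of 32 reads of replicate 2. Capitals in the site sequences again mark the called C and the 2 bases after it.

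Shared CA sites lay in 1622 of 21887 protein-coding genes (7.41%), and 1422 of these held 1 site. Such genes were long, with a median of 69.5 kb against 17.2 kb over all. The share with a shared CA site rose with length, from 2.50% of genes below 20 kb to 44.1% of the 227 genes of at least 500 kb, while sites per Mb of gene fell from 3.39 to 0.79. Gene counts below are read against that length dependence.

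Sfi1, a centrosomal protein gene on chromosome 11, held the most shared CA sites, 10, of which 6 lay in dense windows. Its levels ran from 20.9% to 88.0% in replicate 1. Wwox, a WW-domain oxidoreductase gene in a fragile site, held 6 (4 CAC, 1 CAA and 1 CAG) from 19.2% to 80.6%, and the oxidase gene Enox1 held 5, from 23.3% to 93.5%. Of the next genes, Asic2, Atp2b2, Camta1, Gabbr2, Sdk1, Tmem132d and Wwp2 held 4 each, and 21 genes held 3, of which Alk, Bean1, Chst15, Cracdl and Erc2 come first in the alphabet. Of the 15 genes named here, Sfi1, Bean1 and Chst15 were below 100 kb. In Tmem132d 3 of the 4 sites were CAT and in Alk, a receptor tyrosine kinase gene, all 3 were CAG. Levels varied widely within a gene, as in Camta1 from 38.2% to 100% over 4 sites in replicate 1.

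Genes of the methylation and oxidation machinery were counted against the 7.41% of all protein-coding genes that held a shared CA site. Of 8 genes for enzymes and helpers of CA methylation, 1 held a shared CA site (12.5%): Dnmt3a, itself a writer of CA methylation, carried a CAA (chromosome 12, 3809839, minus strand) with 25 of 32 reads kept in both libraries (78.1%). Of 21 genes for oxidation and removal of modified cytosine, 2 did (9.52%): Ung, the uracil glycosylase, with a CAG at 54.1% in both, and Parp1, a DNA break sensor, with a CAT at 64.1% and 62.5%. Tet2, Tet3 and Tdg each held a CA site in 1 library only. Of 14 genes for readers of methylated cytosine, 2 did (14.3%), among them Zbtb4, a methyl-CG binding zinc finger, with a CAC at 65.8% in both.

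Of 25 pluripotency factor genes 2 held a shared CA site (8%): Tfcp2l1, a factor of naive pluripotency, with a CAC at 93.8% in both, and Utf1 with its fully kept CAC. Utf1 is 1.26 kb long, against a median of 69.5 kb for genes with a shared CA site. Of 20 long neuronal genes 10 did (50.0%), with 14 sites in all and a median length of 1292 kb, close to the 44.1% of all genes of at least 500 kb. Lsamp, a neuronal cell adhesion gene, held 3 CAG sites at 82.9%, 61.8% and 97.0% in replicate 1. Csmd1 held a fully kept CAG (31 of 31 reads in both) and Cntnap2 a CAA with 30 of 31 reads in both, whereas the sites of Csmd3 and Ptprd lay between 22.9% and 25.7% in replicate 1. Counts in the 4 shorter-gene lists rest on 1 or 2 genes each and lie near the background share.

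CA sites were found on every autosome and were sparser on X. Autosomes carried a median of 3.38 CA sites per Mb in replicate 1 (2.70 to 5.41) and 3.57 in replicate 2 (2.57 to 5.54), and X carried 0.26 of that median in both. The CA share of calls ran from 30.8% to 35.1% over autosomes in replicate 1 and from 30.0% to 34.7% in replicate 2. It was 31.4% and 31.8% on X, inside the autosomal range, so the lower density on X was not particular to CA.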

How the data were processed

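CLED-seq libraries of mouse embryonic stem cells (1 group of 2) were used, grouped by their titles. Without stating roles, the submitters' processing notes list Bismark 0.23.1 and Bowtie2 2.4.5, then SAMtools, FastQC 0.11.9, cutadapt 4.1 and the build mm10. Handling of duplicates was not given in the sources used here. Per the file headers, the authors deposited raw counts of kept and lost C reads per cytosine. They are followed by the authors' deposited p-values, also adjusted by Holm and by Benjamini-Hochberg. Every listed site reached 30 reads and an adjusted p below 0.05. Numbers of tested cytosines were taken from the Holm values.

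The level is kept reads over depth. Depths of CA sites ran to 133 and 132 reads with a median of 34, and their reads summed to 334194 and 341721. Sites were matched by chromosome, position and strand. Genes, strands and sequences came from RefSeq tables of GRCm38. Named sites were, per trinucleotide, the 5 shared sites whose lower level of both libraries was highest (ties by summed depth), the 5 with the lowest Fisher p, the 10 deepest outside dense windows, and those around gene starts, 12 of them with sequence. Named genes were the 15 with the most shared CA sites (ties in alphabetical order) and listed genes that held one, some of which are not reported here. Members and lists were chosen with earlier results of these data known. One gene of the lists, Dnmt3c, had no entry in the gene table. Shares have 95% Wilson intervals, differences of shares Newcombe intervals, and differences of means intervals from the spread over sites. Fisher's exact test was tested on simulated data in which the libraries were drawn independently. That setting differs from the shared sites here, where most counts were identical. Alternatives were a depth of at least 50 reads, adjusted p below 0.01 or 0.001, levels of at least 20%, sites outside dense windows, genes with 2 kb flanks, matching within 5 bp, and each library alone. Software was scipy 1.17.1, pandas 2.3.3 and numpy 2.4.6 under Python 3.11.15.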

Additional observations from a re-analysis of the deposited data

How the results depend on the processing

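Over the results for CA as a whole and for CAG against CAC, 52 values from alternatives kept their direction and their side of 0 or stayed within the interval, 12 moved beyond it, 6 kept the direction but no longer excluded 0, and 3 changed sign. Values here are means of the libraries. The CA share of calls, 32.2%, was 29.5% at a depth of at least 50 reads. The CA median level, 47.0%, was 33.1% at that depth, 52.4% at an adjusted p below 0.01 and 58.7% below 0.001. The genic share, 50.7%, was 37.7% at a depth of at least 50, 51.7% outside dense windows and 54.4% with 2 kb flanks. The share called in both libraries, 39.2%, was 27.1% at that depth. The CAG minus CAC mean level, 0.14 points, was -0.21 outside dense windows, and -0.082 and 0.37 with either library alone. The CAG minus CAC genic share, 2.99 points, was 10.9 at a depth of at least 50, 2.76 and 2.61 at the stricter adjusted p-values and 2.37 outside dense windows, intervals that all included 0, and ran from 2.34 (replicate 2 alone) to 3.63 with either library alone. CA minus CC and CT was -1.92 points in mean level at a depth of at least 50 (0.86 as reported) and -5.39 points in genic share (-1.77 as reported), both with intervals including 0. The 1 CA site that differed between libraries was also called at that depth, and 0 sites were called at an adjusted p below 0.01 or 0.001, at levels of at least 20% and outside dense windows, the site having dropped out of the lists compared. Of the values for single trinucleotides, 24 of 88 moved. At 50 reads few sites remain (468 and 469 CA sites); the cause of the changes was not tested. No paired analysis was possible because there is 1 group, with no second group whose replicates could be paired with it.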

Other observations

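Where the depths of the libraries differed most at a shared CA site, many stood in a whole or half-whole ratio. Of 3571 shared CA sites outside dense windows, 2776 had the same depth in both libraries, and 698 had depths within a ratio of 1.2. Of the other 97, both kept reads and depth in one library were 2 times those in the other at 55 sites, 1.5 times at 16 and 3 times at 3, each within 2 reads. Pigv with 41 and 80 reads, Ptprg with 35 and 70, and Dtx2 with 81 and 54 are examples, all at 100%. Among CC and CT sites outside dense windows, 246 had depths at a ratio of at least 1.2, and the same multiples held at 134, 32 and 8. The ratios were looked for after the counts had been seen, and how they arose was not tested.

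Within the 168 CA sites around gene starts, median levels by preceding base were 56.7% and 50.0% after A, 50.0% and 41.2% after C, 48.5% and 44.1% after G, and 56.7% and 53.3% after T in replicates 1 and 2, with 15 to 45 sites each and quartiles that overlapped throughout.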
